A study of Arabidopsis thaliana with 12 samples.

Results

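The genes described here are the ethylene-responsive transcription factors (ERF) and dehydration-responsive element-binding factors (DREB) of Arabidopsis thaliana, taken as every gene whose description in the deposited table names one of these kinds of protein. By that rule there were 138 genes of 33197 with an identifier, and the rule used no measured value. Of the 138, 15 are described as AP2-like and 15 as DREB proteins. Poly(A) RNA was sequenced from leaves at 18 days of leaf age in 12 libraries, 3 of each genotype, all in the Columbia background. The groups were wild type and the anac017, anac082 and anac090 lines, described as knockouts, each with a T-DNA insertion in the NAC transcription factor gene of that name. The labels name the SALK, SAIL and GABI-KAT collections as sources and do not say which line came from which. The number of lines per genotype is not stated, and each mutant genotype is taken here as 1 line. The labels do not say whether the 3 libraries of a genotype came from separate plants. The p-values below therefore rest on the spread between libraries, and that spread may be technical.

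ERF and DREB proteins share the AP2/ERF domain, with which they bind DNA. Many ERF proteins bind the GCC box and act in responses to ethylene, jasmonate, wounding and pathogens, while DREB proteins bind the dehydration-responsive element (DRE) and act in cold, heat and drought. Ethylene is sensed by receptors that keep the kinase CTR1 active, and when they are occupied EIN2 and the factor EIN3 turn on ERF genes. Part of the family represses its targets through a short EAR motif, and the factors of group VII are stable only at low oxygen. AP2-like proteins carry a repeated domain and act in flowering and organ growth. In leaves, many ERF genes are known for fast and short-lived rises after touch, wounding or a pathogen signal.

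The sequences 250 bases upstream of the annotated gene start are shown for 5 members that the results below turn on, namely the pair called higher in the anac090 line and 3 that rose in more than 1 line once libraries were matched by replicate number. They come from RefSeq TAIR10.1 and read 5′ to 3′ toward the gene. Capitals mark the letters of the W box (TTGAC, known as the site of WRKY factors), the GCC box (GCCGCC), the DRE core (CCGAC), the G-box (CACGTG) and the rapid stress response element (CGCGTT), searched on both strands.
ERF11, chr1:9956981-9957230, minus strand: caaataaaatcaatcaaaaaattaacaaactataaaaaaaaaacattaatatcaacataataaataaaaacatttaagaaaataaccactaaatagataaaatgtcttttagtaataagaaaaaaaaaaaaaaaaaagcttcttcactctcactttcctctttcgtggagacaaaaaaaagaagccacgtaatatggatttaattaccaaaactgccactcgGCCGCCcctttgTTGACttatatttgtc
ERF1A, chr4:9758953-9759202, plus strand: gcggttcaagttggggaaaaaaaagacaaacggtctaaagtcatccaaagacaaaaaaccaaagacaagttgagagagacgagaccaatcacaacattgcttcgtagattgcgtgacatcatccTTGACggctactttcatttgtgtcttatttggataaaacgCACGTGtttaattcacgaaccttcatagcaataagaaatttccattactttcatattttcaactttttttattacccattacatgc
ERF2, chr5:19172957-19173206, minus strand: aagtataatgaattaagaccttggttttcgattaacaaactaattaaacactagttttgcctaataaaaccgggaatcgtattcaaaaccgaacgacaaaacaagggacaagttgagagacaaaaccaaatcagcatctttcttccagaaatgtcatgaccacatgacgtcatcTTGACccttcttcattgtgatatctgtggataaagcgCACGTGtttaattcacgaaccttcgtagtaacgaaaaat
ERF011, chr3:18634296-18634545, plus strand: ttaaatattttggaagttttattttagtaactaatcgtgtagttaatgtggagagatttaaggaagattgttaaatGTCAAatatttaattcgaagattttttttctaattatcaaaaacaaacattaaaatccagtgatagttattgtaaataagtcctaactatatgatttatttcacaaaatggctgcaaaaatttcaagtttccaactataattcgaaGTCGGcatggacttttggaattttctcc
CRF6, chr3:22804748-22804997, plus strand: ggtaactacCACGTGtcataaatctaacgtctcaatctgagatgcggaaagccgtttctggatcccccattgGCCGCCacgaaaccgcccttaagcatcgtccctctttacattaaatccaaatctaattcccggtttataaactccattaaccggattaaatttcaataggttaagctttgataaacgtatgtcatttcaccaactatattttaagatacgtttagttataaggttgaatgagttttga
The window of ERF11 held a GCC box at position -28 and a W box at -16 relative to the gene start. ERF1A and ERF2 each held a W box and a G-box, and CRF6 a GCC box and a G-box. The ERF1A and ERF2 windows shared an identical run of 26 bases around the G-box, starting at positions -88 and -41, which reads cgCACGTGtttaattcacgaaccttc. Of 2556 pairs of windows of tested members, the 1 pair with a run that long was this pair, from which the length was taken. Over all 138 members, a W box was present in 63 windows (45.7%, against 44.9% of the 27443 windows of protein-coding genes), a GCC box in 6 (4.35% against 1.87%) and a DRE core in 21 (15.2% against 12%). A G-box was present in 20 (14.5% against 6.49%), the rapid stress response element in 8 (5.8% against 2.59%) and the evening element (AAAATATCT) in 4 (2.9% against 2.36%). The motif of the mitochondrial dysfunction response, bound by ANAC017, was present in 1 member window (0.725% against 1.2%). That window is of ERF017, a member not tested, and all its 250 bases are annotated as exon. Some other member windows also overlap annotated exons. These matches are letters in a window and were not measured as binding.

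The values in the files are log2 values that stand for log2(abundance + 1). They were quantile normalized between libraries, and the depth is unknown. Whether they are scaled by gene length is not stated in the sources used here, so differences are those of a gene between libraries, and the values of different genes are not compared. A gene was tested if its back-transformed values averaged 1 or more, and 72 members (52.2%) passed this filter, against 50.7% of all genes. Of the 66 members not tested, 20 were listed at 0 in all 12 libraries. That is 14.5% of the members, against 29.0% of all genes. The other 46 had some value above 0, and 6 of them reached at least 1 in some library, the highest being the drought and heat factor DREB2E at 2.13 in anac090 replicate 3. The tested members had mean values of 0.99 to 8.73. The 10 members named for their mean value, which does not rank their transcript levels, were RAP2-3 (8.73), the wax repressor ERF107 (7.78), the flowering repressor RAP2-7 (6.39), RAP2-12 (6.32), RAP2-2 (6.09), RAP2-4 (6.06), ERF2 (5.83), ERF4 (5.31), the flowering repressor SNZ (5.15) and AT2G41710 (5.15). The members varied more between libraries of 1 genotype than most genes did. Their median SD within a group was 0.38, against 0.18 over all 16817 genes tested, and 61 of the 72 (84.7%) lay above the latter value. The genes were not matched for level, and the median mean value was 3.13 in the members and 3.82 over all genes tested.

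Several facts of the whole series bear on the values below. Transcripts of ANAC017 (6.75 against 5.89 in wild type) and ANAC082 (9.83 against 5.02) rose rather than fell in the libraries labelled for them. ANAC090 stood at 0.95 against 1.54 in those labelled anac090, a fall that did not pass limma's test (adjusted p = 0.192). ANAC090 stood at 2.64 in anac017 and 2.45 in anac082 (0.0751 and 0.664), and ANAC082 at 6.06 in anac017 (0.00137). Directions are thus those of the labelled libraries. Over all genes, anac090 replicate 3 and anac082 replicate 1 lay far from the other libraries of their genotype on the first principal component. Replicate 2 of anac090 lay apart as well, at -12.75 against 15.91 and 74.14 in replicates 1 and 3. It had the lowest value of all libraries on the second component, at -37.77. The clock, scored as the average of 2 morning genes (CCA1, LHY) less that of 5 evening and afternoon genes, had a mean score of 2.56 ± 0.93 (SD, n = 3) in wild type. The mutant scores were 1.43 ± 0.91 for anac017, 1.76 ± 0.93 for anac082 and 1.46 ± 0.72 for anac090. Replicate 1 had the lowest score in every genotype, and each group overlapped with wild type. Within a replicate number, all 9 mutant libraries scored below wild type, with differences of -1.09, -1.09 and -1.18 in anac017, -0.81, -0.87 and -0.70 in anac082, and -0.87, -1.36 and -1.05 in anac090. Changes here and below are given ± the SE of limma's model without a block on replicate number. None of the 7 clock genes passed limma's test without that block, which is used below. With it CCA1 was lower in anac017 (-0.80 ± 0.25, adjusted p = 0.0943, block 0.00133) and anac090 (-0.69 ± 0.25, 0.0878, block 0.00492) and LHY in anac090 (-0.57 ± 0.22, 0.112, block 0.0176). The evening genes APRR1 and ELF4 were higher with it in anac017 (block 0.0253 and 0.0278) and anac090 (block 0.0173 and 0.0199), and APRR5 in anac017 (block 0.0183).

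Markers of leaf mesophyll were at 12.7 to 13 in summed level in every library. Of its 4 genes, the carbonic anhydrase gene BCA1 lay below wild type without overlap in each line, at -0.78 ± 0.35 in anac017 (adjusted p = 0.198), -0.39 ± 0.35 in anac082 (0.764) and -1.14 ± 0.35 in anac090 (0.0654, block 0.0460), and the other 3 overlapped with wild type in each. Markers of flowers were at 0.35 to 1.29 and those of dividing cells at 1.11 to 1.81. The phloem list ranged from 8.44 to 8.87 in wild type, 9.04 to 9.30 in anac017, 8.78 to 8.99 in anac082 and 8.56 to 9.16 in anac090, and 1 of its 3 genes, the sucrose exporter SWEET12, passed the test in anac017 (1.91 ± 0.37, adjusted p = 0.0286, block 0.00330) and in anac090 (1.39 ± 0.37, 0.0465, block 0.0138). With the block its relative SWEET11 was higher there too (0.80 ± 0.23 and 0.53 ± 0.23, 0.0815 and 0.137, block 0.0140 and 0.0252), and SUC2 was not. The guard cell list was at 4.78 to 4.86 in wild type, 4.49 to 4.60 in anac017, 4.47 to 4.83 in anac082 and 4.73 to 4.93 in anac090, and its gene FAMA was lower in anac017 with the block (-0.53 ± 0.14, 0.0677, block 0.0475). Its other genes MYB60 (-0.45 ± 0.16, adjusted p = 0.121, block 0.083) and KAT1 (0.005 ± 0.13, 0.986, block 0.983) did not pass there. The epidermis list was at 4.87 to 4.91 in wild type and 3.54 to 4.74 in the mutant libraries, lowest in anac090 replicate 3. Its gene ATML1 was lower in anac090 with the block (-0.71 ± 0.23, 0.0723, block 0.0474), and its other gene PDF1 was listed at 0. In leaf RNA, fewer cells of a type and less RNA per cell cannot be told apart. The part of the clock and of these cell types in the results was not tested.

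**Figure D1:**
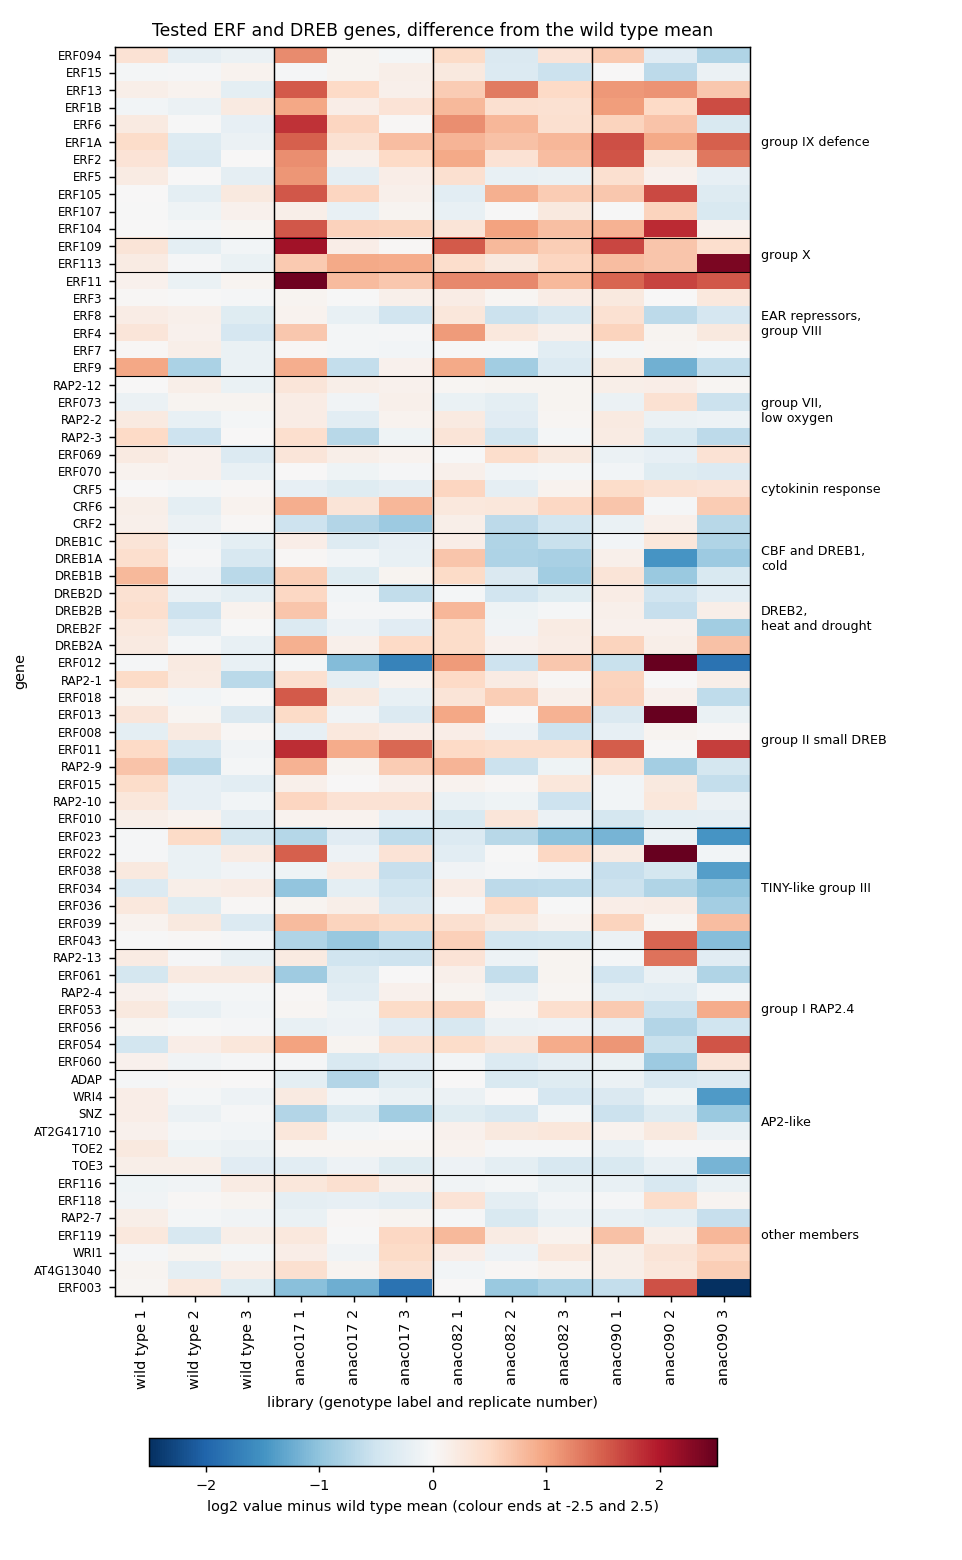
Log2 value minus the wild type mean of the same gene for the 72 tested members (rows, ordered by class) in the 12 libraries (columns). Rows of group IX, group X and ERF11 are mostly above 0 in the mutant libraries. The mean of the group IX rows is highest in anac017 replicate 1 (1.13) and that of the group X rows in anac090 replicate 3, while ERF012, ERF013 and ERF022 are far above 0 in anac090 replicate 2.

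The comparison of the libraries labelled anac090 with wild type was the one in which members passed limma's test over all genes: ERF11 and ERF1A rose, and none fell. ERF11 (AT1G28370, chromosome 1, 9955969 to 9956940, TAIR10 as in the table) is an EAR repressor known to restrain ethylene synthesis genes. Its log2 values were 1.8, 1.52 and 1.75 in wild type, 4.12, 2.49 and 2.37 in anac017, 2.89, 2.89 and 2.5 in anac082, and 3.15, 3.37 and 3.24 in anac090. Each mutant library lay above all 3 wild type libraries. In anac090 the difference was 1.56 ± 0.37 (SE), or 2.96-fold (limma adjusted p = 0.0380, or 0.0240 once the replicate number is a block). The differences were 1.30 ± 0.37 in anac017 (0.0798, block 0.0515) and 1.07 ± 0.37 in anac082 (0.664, block 0.375). ERF1A (AT4G17500, chromosome 4, 9759325 to 9760340), a GCC box activator, stood at 4.36, 3.58 and 3.74 in wild type and at 5.50, 4.83 and 5.38 in anac090, with no overlap. It rose 2.54-fold there (1.35 ± 0.28, adjusted p = 0.0343, block 0.0105). Its anac017 values of 5.38, 4.27 and 4.66 overlapped with wild type (0.88 ± 0.28, 0.102, block 0.0257), and its anac082 values of 4.75, 4.62 and 4.72 did not (0.80 ± 0.28, 0.664, block 0.308). These comparisons share the wild type libraries.

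The 2 members are 2.78% of the 72 tested, and 3.66% of all genes tested were called higher in anac090 and 3.65% lower. The members' share was thus near or below the background. The calls depended on single libraries. The change of ERF11 was 1.48 to 1.62 without any 1 library, and its adjusted p rose above 0.05 without wild type replicate 1 (0.0875), 2 (0.111) or 3 (0.109) and without anac090 replicate 1 (0.0608) or 3 (0.0816). The same held without anac017 replicate 2 (0.0532) or 3 (0.0538) and anac082 replicate 2 (0.0549) or 3 (0.0579), which enter ERF11 only through the shared spread. ERF1A was lost without wild type replicate 1 (0.0653), 2 (0.104) or 3 (0.107), anac017 replicate 3 (0.0568), anac082 replicate 2 (0.0514) or 3 (0.0550) and anac090 replicate 1 (0.0606) or 3 (0.0707), at changes of 1.19 to 1.58. Without anac090 replicate 2, 13 members were called higher and 6 lower (18.1% and 8.33%), against 13.8% and 16.0% of all genes. Leaving out anac017 replicate 2 gave 1 higher call, leaving out anac017 replicate 1 or anac082 replicate 1 gave 2, and each of the other 8 libraries gave 0. For these other fits the share of all genes was not computed.

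With the replicate number as a block, 8 members were higher in anac090 (11.1%) and 4 lower (5.56%), against 8.19% and 10.1% of all genes. The 8 were ERF11, ERF1A, ERF2, ERF1B, ERF13, ERF113, ERF011 and CRF6. ERF2, a GCC box activator, stood at 5.58, 4.90 and 5.24 in wild type and at 6.81, 5.53 and 6.56 in anac090 (1.06 ± 0.35, adjusted p = 0.0746, block 0.0138). The groups overlapped, since anac090 replicate 2 lay below wild type replicate 1, yet each anac090 library lay above the wild type library of its own number. ERF1B, which joins the ethylene and jasmonate signals, stood at 0.77, 0.69 and 1.08 in wild type and at 1.89, 1.34 and 2.49 in anac090, with no overlap (1.06 ± 0.29, 0.0519, block 0.0286). ERF113, a group X factor linked to wounding and tissue repair, stood at 0.83, 0.60 and 0.46 against 1.40, 1.32 and 2.98, where replicate 3 lay far above the other 2 (1.27 ± 0.36, 0.0548, block 0.0390). ERF13 stood at 1.24, 1.18 and 0.85 against 2.17, 2.22 and 1.77, with no overlap (0.97 ± 0.33, 0.0817, block 0.0414). The small DREB factor ERF011 (0.0962, block 0.0346) and the cytokinin response factor CRF6 (0.182, block 0.0465) had overlapping groups, with anac090 replicate 2 at 3.31 and 3.91 and the other libraries at 4.80 and 5.0, and at 4.63 and 4.57.

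**Figure D2:**
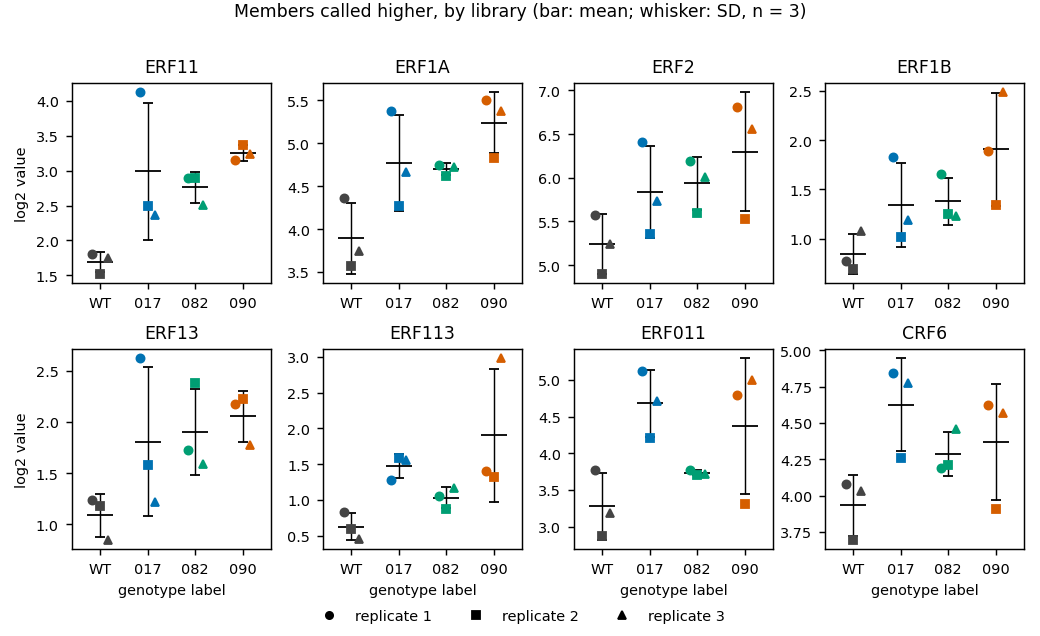
Log2 values of 8 members by genotype label (WT, wild type); each marker is a library, shaped by replicate number, the bar is the group mean and the whisker the SD (n = 3). ERF11, ERF1A, ERF1B, ERF13 and ERF113 have every anac090 library above every wild type library, while ERF2, ERF011 and CRF6 overlap through anac090 replicate 2.

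The 4 members lower in anac090 only with the block were the TINY-like factors ERF023 and ERF038, the EAR repressor ERF9 and the flowering repressor TOE3. ERF038 stood at 1.61, 1.22 and 1.29 in wild type and at 0.80, 0.94 and 0.00 in anac090, without overlap (-0.80 ± 0.26, adjusted p = 0.0745, block 0.0403). The replicate 3 library was listed at 0. ERF023 stood at 2.88, 3.39 and 2.48 against 1.75, 2.75 and 1.45 (-0.93 ± 0.33, 0.0898, block 0.0321), and TOE3 at 3.14, 3.13 and 2.71 against 2.6, 2.80 and 1.83 (-0.58 ± 0.22, 0.105, block 0.0390). Both overlapped with wild type through anac090 replicate 2. ERF9 stood at 3.42, 1.66 and 2.3 against 2.71, 1.26 and 1.86 (-0.52 ± 0.59, 0.567, block 0.0259): each anac090 library lay below the wild type library of its number, within a spread between numbers that was larger than the difference. Further down the list, ERF034 was at -0.76 ± 0.26 (0.0803), DREB1A at -0.75 ± 0.44 (0.261) and the wax factor WRI4 at -0.63 ± 0.28 (0.147). Among all 72 members, 9 lay above wild type without overlap in anac090 (12.5%, against 13.4% of all genes) and 8 below (11.1% against 18.2%).

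In the libraries labelled anac017 no member passed limma's test over all genes, in either direction (background 1.47% higher and 0.612% lower). At an unadjusted p under 0.05 there were 10 higher and 4 lower members (12% and 13.2% of all genes), and the smallest adjusted p was 0.0712, of SNZ. Leaving out anac090 replicate 2 or 3, which enter only through the shared spread, gave 3 and 5 higher and 1 and 2 lower members (against 5.26% and 4.57% of all genes without replicate 2, and 8.38% and 9.20% without replicate 3). With the replicate number as a block, 4 members were higher (5.56%, against 4.11% of all genes) and none lower (3.05%). These were ERF011, CRF6, ERF1A and ERF2. ERF011 (AT3G50260, chromosome 3, 18634576 to 18635398), also known as DEAR1 for its DREB and EAR parts, stood at 3.77, 2.87 and 3.19 in wild type and at 5.11, 4.21 and 4.71 in anac017, with no overlap. The difference was 1.40 ± 0.40, or 2.64-fold (adjusted p = 0.0817, block 0.0291). CRF6 (AT3G61630, chromosome 3, 22805180 to 22806527), known to delay leaf senescence, stood at 4.08, 3.69 and 4.03 against 4.84, 4.26 and 4.77, again with no overlap (0.69 ± 0.21, 0.0932, block 0.0230). ERF2 (AT5G47220, chromosome 5, 19171862 to 19172823) stood at 6.41, 5.36 and 5.74 in anac017 and overlapped with wild type (0.59 ± 0.35, 0.296, block 0.0495).

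The flowering repressor SNZ lay lower in anac017, at 4.79, 5.15 and 4.67 against 5.71, 5.39 and 5.51 in wild type, with no overlap (-0.66 ± 0.18, adjusted p = 0.0712, block 0.0560). In anac090 it stood at 5.0, 5.21 and 4.60 (-0.59 ± 0.18, 0.0606, block 0.0507). The cytokinin response factor CRF2 was at -0.72 ± 0.24 in anac017 (0.111), ERF043 at -0.78 ± 0.51 (0.347), ERF012 at -0.93 ± 1.19 (0.646) and ERF003 at -1.38 ± 0.82 (0.303). Of these, SNZ, CRF2, ERF043 and ERF003 did not overlap with wild type. ERF104, a target of the defence kinase MPK6, was at 0.89 ± 0.40 (0.191) and ERF113 at 0.85 ± 0.36 (0.176), both without overlap. In all, 7 members lay above wild type without overlap in anac017 (9.72%, against 19.0% of all genes) and 8 below (11.1% against 22.6%).

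In the libraries labelled anac082 no member passed limma's test with or without the block, and few genes did at all (0.0297% higher and 0.0178% lower, and 0.0238% and 0.0119% with the block). At an unadjusted p under 0.05 there were 3 higher members (against 3.71% of all genes) and 0 lower (3.46%), and the smallest adjusted p was 0.664. Without anac017 replicate 1, which enters only through the shared spread, ERF11 was called higher in anac082 (1.07, adjusted p = 0.0457). By the order of the libraries, 14 members lay above wild type without overlap (19.4%, against 8.37% of all genes) and 1, ERF056, below (1.39% against 10.3%). The 14 were ERF11, ERF3, ERF018, AT2G41710, ERF13, ERF1B, CRF6, ERF6, ERF1A, ERF054, ERF109, ERF113, ERF2 and ERF104, of which 6 are group IX factors. ERF6, known to slow leaf growth under drought, stood at 2.44, 2.21 and 2.01 in wild type and at 3.38, 3.06 and 2.63 in anac082 (0.80 ± 0.42, adjusted p = 0.696). ERF109, a redox-responsive factor, stood at 0.86, 0.29 and 0.48 against 2.07, 1.35 and 1.17 (0.99 ± 0.52, 0.696). ERF13 was at 0.81 ± 0.33 (0.665). The largest negative differences were those of ERF023 (-0.69 ± 0.33, 0.696), ERF003 (-0.57 ± 0.82, 0.851), DREB1C (-0.38 ± 0.29, 0.744), ERF034 (-0.37 ± 0.26, 0.726) and CRF2 (-0.32 ± 0.24, 0.739), all with overlap.

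**Figure D3:**
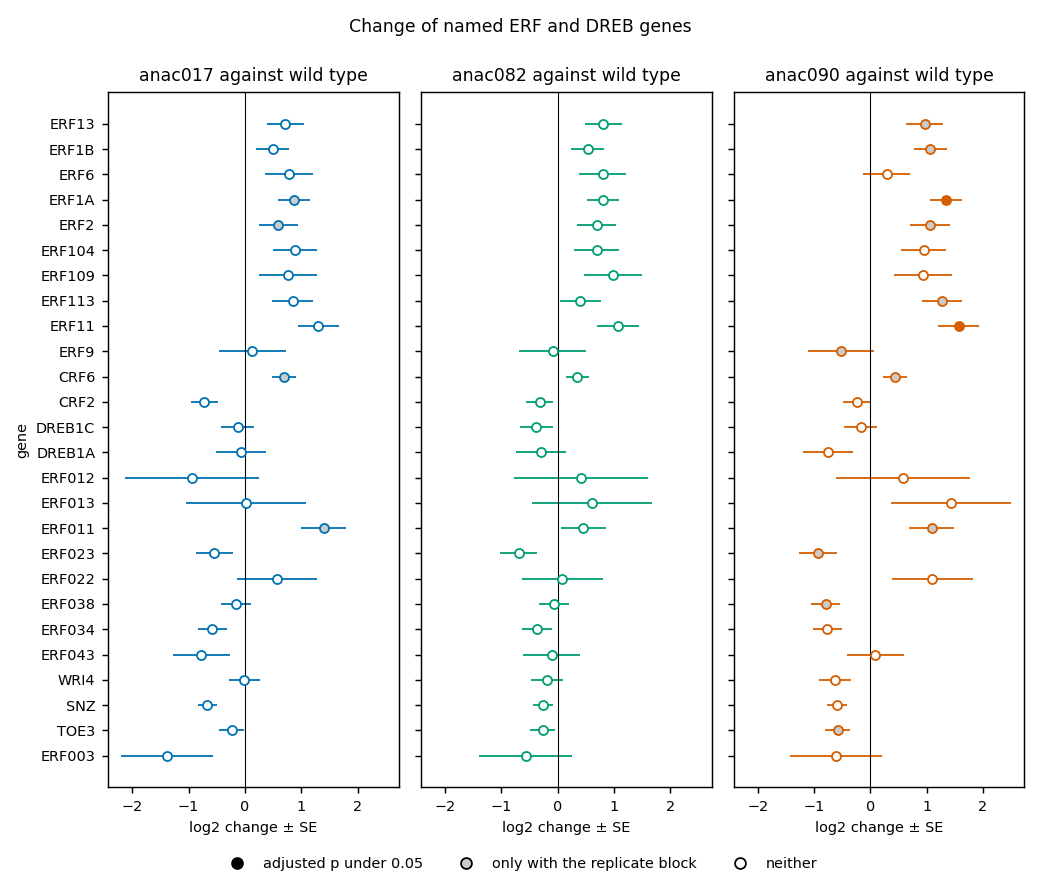
Log2 change ± SE from wild type (x axis) of 26 named members (y axis) in the 3 mutant lines; filled points passed limma's test over all genes, grey points did so only with the replicate number as a block, and open points did neither. ERF11 and ERF1A are the filled points, both in anac090, and the bars of ERF012 and ERF013 are the widest.

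The members were also compared between mutants, where wild type counts only toward the filter and the common estimate of spread. No member passed limma's test in any of these 3 comparisons, against 0.773% of all genes higher and 0.119% lower in anac017 than in anac082, 1.31% and 0.172% in anac017 than in anac090, and 0.0119% and 0 in anac082 than in anac090. At an unadjusted p under 0.05, 3 members were higher and 2 lower in anac017 than in anac082 (6.18% and 5.08% of all genes), 5 and 2 in anac017 than in anac090 (8.01% and 4.72%), and 2 and 2 in anac082 than in anac090 (6.11% and 5.27%). Leaving out wild type replicate 3 gave 1 member higher in anac017 than in anac090, and leaving out anac082 replicate 1 gave 1 lower. Shares of all genes in these left-out fits were not computed, and those above are of the full fit. The smallest p between anac017 and anac082 was that of RAP2-10 (0.69 ± 0.16, adjusted p = 0.0837), and that between anac017 and anac090 was of ERF116 (0.53 ± 0.12, 0.0555). CRF5 followed at -0.64 ± 0.16 (0.0977): its values were 1.78, 1.67 and 1.75 in anac017 and 2.43, 2.35 and 2.32 in anac090, with wild type between at 1.98, 1.94 and 2.02. Between anac082 and anac090 it was that of ERF038 (0.73 ± 0.26, 0.386). With the block, ERF9 (0.65 ± 0.59, 0.700, block 0.0239) and RAP2-9 (0.83 ± 0.44, 0.479, block 0.0163) were higher in anac017 than in anac090 (2.78%, against 1.90% of all genes) and none lower (0.392%). Both are members that varied with the replicate number, described below.

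Group IX, which holds the activators of ethylene and jasmonate defence, was the class with the most tested members, 11 of 16. In these 11 the median difference was 0.59 in anac017, 0.53 in anac082 and 0.67 in anac090. The same medians over all 72 members were 0.07, 0.04 and 0.01, and over all genes tested -0.02, -0.01 and -0.03. Positive differences were found for 11, 10 and 9 of the 11. The member past the test was ERF1A in anac090, and group VIII had 1 as well, ERF11. With the block 2 were higher in anac017, 0 in anac082 and 4 in anac090, against 4.11%, 0.0238% and 8.19% of all genes. The mean of the 11 relative to the wild type mean of each gene was 0.15, -0.12 and -0.02 in the wild type libraries. It was 1.13, 0.23 and 0.25 in anac017, 0.49, 0.42 and 0.38 in anac082, and 0.77, 0.62 and 0.28 in anac090. All 9 mutant libraries lay above the 3 wild type ones, with anac017 replicate 1 highest. The members were not alike: ERF107 was at 0.01, 0.01 and 0.05 in the 3 lines, ERF15 at 0.06, -0.21 and -0.26, and ERF094, known as ORA59 and as the activator of defensin genes, at 0.40, 0.15 and -0.13. ERF5, a relative of ERF6, was at 0.34, 0.02 and 0.10, and ERF105, known from cold responses, at 0.74, 0.42 and 0.67, and none of these passed the test. ERF14, ERF091 and ERF096 were listed at 0 in all libraries.

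Of the 8 group X factors, 2 were tested. ERF109 was at 0.76 ± 0.52 in anac017 (adjusted p = 0.365), and in anac090 at 0.93 ± 0.52 (0.237, block 0.0515), with values of 2.21, 1.24 and 0.96. RAP2-6, a target of jasmonate and abscisic acid signals, was below the filter, at 0.11, 0.00 and 0.31 in wild type and with a highest value of 1.33 in anac017 replicate 2. Among the EAR repressors of group VIII, 6 of 8 were tested, and ERF11 was the member past the test. ERF4 stood at 5.37, 5.18 and 4.64 in wild type and was at 0.20 ± 0.28 in anac017, 0.49 ± 0.28 in anac082 and 0.29 ± 0.28 in anac090 (adjusted p = 0.684, 0.706 and 0.510). ERF3, ERF7 and ERF8 had adjusted p of 0.203 or more in each line.

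Of the 5 factors of low oxygen in group VII, 4 were tested, with medians of 0.04 in anac017, -0.03 in anac082 and -0.06 in anac090, and none passed with or without the block. RAP2-12 ranged from 6.07 to 6.53 over the 12 libraries and was at 0.18 ± 0.09, 0.07 ± 0.09 and 0.12 ± 0.09 in the 3 lines (adjusted p = 0.227, 0.845 and 0.384). RAP2-3 was at -0.13, -0.07 and -0.28, each ± 0.34 (0.834, 0.964 and 0.600), and all groups overlapped with wild type. RAP2-2 was at 0.01, 0.00 and -0.01, each ± 0.17, and ERF073, known as HRE1, at 0.07, -0.11 and -0.10, each ± 0.20. ERF071, known as HRE2, was listed at 0 in all libraries. Of 11 known targets of these factors 5 were tested, among them the alcohol dehydrogenase gene ADH1 (0.46 ± 0.18 in anac017, adjusted p = 0.146), and none passed.

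The cold factors CBF1 to CBF3 are listed as DREB1B, DREB1C and DREB1A, 3 neighbouring and nearly identical genes on chromosome 4, so reads may have been split between them. None passed in any line. DREB1A stood at 4.58, 4.15 and 3.78 in wild type, 4.20, 4.10 and 3.98 in anac017, 4.85, 3.39 and 3.36 in anac082, and 4.29, 2.69 and 3.26 in anac090. The wild type values overlapped with those of each line. DREB1B was at 0.12 ± 0.46, -0.25 ± 0.46 and -0.33 ± 0.46 in the 3 lines, and DREB1C at -0.12 ± 0.29, -0.38 ± 0.29 and -0.18 ± 0.29. Of 9 known CBF targets, all tested, none passed without the block. With it, the galactinol synthase GOLS3 was lower in anac017 (-0.92 ± 0.58, adjusted p = 0.333, block 0.0268) and in anac090 (-1.05 ± 0.58, 0.234, block 0.0178), and the dehydrin ERD10 in anac017 (-0.35 ± 0.20, 0.278, block 0.0480). COR15A had the largest difference of the 9 in both lines and passed in neither. It was at -1.453 in anac017 (0.116, block 0.051) and -1.085 in anac090 (0.161, block 0.0704). Positive differences were found for 3 of the 9 in each of these lines. DREB2A, the main factor of heat and drought, was at 0.51 ± 0.22 in anac017 (0.177, block 0.0725), 0.25 ± 0.22 in anac082 (0.758) and 0.48 ± 0.22 in anac090 (0.152, block 0.0599).

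In the other classes, members were called only with the block. The cytokinin response factors had 5 of 8 tested, with CRF6 higher in anac017 and anac090 with the block. The small DREB factors of group II had 10 of 13 tested, with ERF011 the member called with the block. ERF018 of that group, known as ORA47 and as a switch of jasmonate synthesis, stood at 3.31, 3.17 and 3.24 in wild type, 4.78, 3.48 and 3.06 in anac017, 3.56, 3.86 and 3.37 in anac082, and 3.81, 3.35 and 2.6 in anac090, and passed in none. TINY-like factors had 7 of 17 tested, group I factors 7 of 9, DREB2 factors 4 of 8, and AP2-like factors 6 of 15, and among these ERF023, ERF038 and TOE3 were called with the block in anac090. The AP2-like medians were -0.12, -0.21 and -0.44 in the 3 lines. None of the 3 wax and cutin factors was tested, and WIN1 was listed at 0 in all libraries.

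Some differences rested on a single library. In anac090 replicate 2, 8 members lay more than 1 log2 unit above both other libraries of the line (11.1%, against 2.45% of all genes). ERF012 stood at 6.92 there and at 2.2 and 0.91 in replicates 1 and 3, ERF013 at 5.93 against 0.76 and 0.95, and ERF022 at 4.07 against 1.13 and 0.86. ERF003 stood at 6.68 against 4.50 and 2.26. The other 4 were ERF043, RAP2-13, ERF104 and ERF023. In wild type, ERF012 was at 2.57 to 2.99, ERF013 at 0.75 to 1.42 and ERF022 at 0.75 to 1.12. The mean differences of ERF013 (1.43 ± 1.07, adjusted p = 0.372) and ERF022 (1.1 ± 0.71, 0.307) in anac090 thus came from that library, and without it they were -0.26 and 0.08. Without it ERF003 was lower in anac090 (-1.72 ± 0.54, adjusted p = 0.0383) and ERF012 was at -1.21 ± 0.55 (0.121), against -0.61 ± 0.82 and 0.58 ± 1.19 with it. On the first principal component of the 72 members, which held 41.8% of their variance, anac090 replicate 2 lay at -7.84 and the other 11 libraries between -0.78 and 3.92.

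In anac017 replicate 1, 9 members lay more than 1 log2 unit above both other libraries of the line (12.5%, against 0.345% of all genes). These were ERF109, ERF11, ERF018, ERF6, ERF022, ERF094, ERF13, ERF105 and ERF012, of which 4 are group IX factors. ERF109 stood at 2.64 there and at 0.72 and 0.56 in replicates 2 and 3, ERF6 at 4.02 against 2.75 and 2.24, and ERF11 at 4.12 against 2.49 and 2.37. In replicates 2 and 3, ERF11 still lay above the highest wild type value of 1.8, while ERF109 lay within the wild type range of 0.29 to 0.86. In anac082 replicate 1 the same count was 3 (DREB1A, ERF043 and ERF9, against 0.422% of all genes). Wild type replicate 1 had ERF9 (0.256% of all genes), anac090 replicate 1 had DREB1A (0.0892%) and anac090 replicate 3 had ERF113 (2.95%). The clock score of anac017 replicate 1 was 0.40, the lowest of the 12, and its part in these values was not tested.

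**Figure D4:**
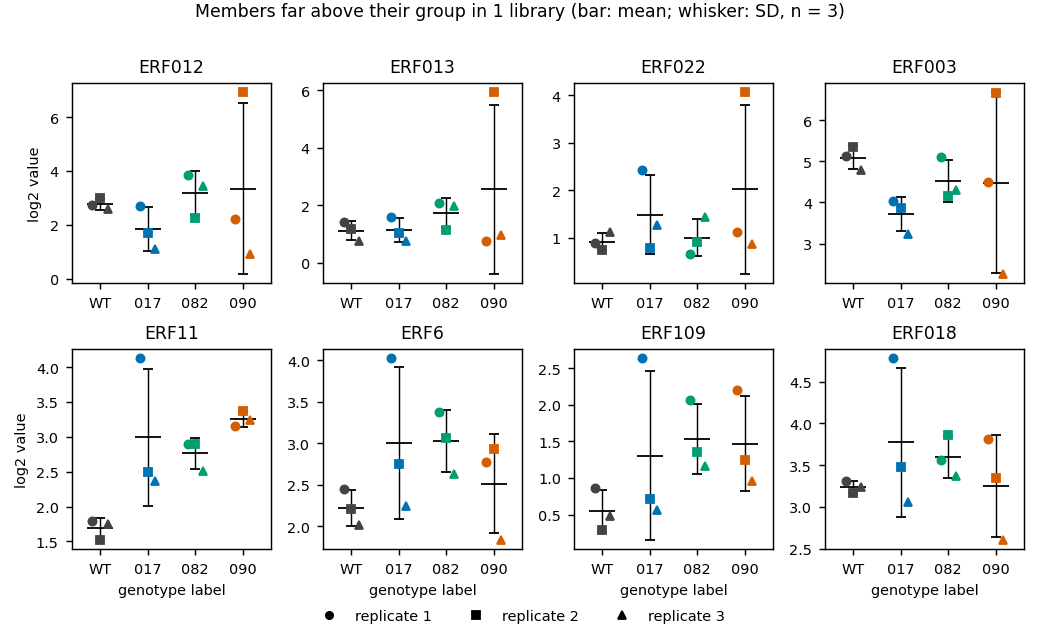
Log2 values of 8 members by genotype label, drawn as in the plot of members called higher. In the upper row anac090 replicate 2 (square) stands far above both other libraries of its line, as for ERF013 at 5.93. In the lower row anac017 replicate 1 (circle) stands above both other libraries of its line, as for ERF109 at 2.64, and not always far above those of other lines.

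Members also differed with the replicate number, in all genotypes at once. In a limma F-test of the number beside the genotype, 4 members passed (5.56%, against 0.624% of all genes): ERF9, RAP2-9, ERF2 and RAP2-3. Leaving out anac090 replicate 2 or 3 gave 9 and 8, and leaving out any of the other 10 libraries gave 1 or 2. The share of all genes was not computed for these fits, so their counts cannot be set against 0.624%. ERF9 stood at 3.42, 3.36, 3.40 and 2.71 in replicate 1 of wild type, anac017, anac082 and anac090, at 1.66, 1.86, 1.60 and 1.26 in replicate 2, and at 2.3, 2.56, 2.11 and 1.86 in replicate 3 (adjusted p = 0.00196). Replicate 1 was the highest and replicate 2 the lowest in every genotype. RAP2-9 (adjusted p = 0.00988) had means of 4.62, 3.42 and 3.92 in the 3 numbers, ERF2 (0.0437) of 6.25, 5.35 and 5.89, and the low oxygen factor RAP2-3 (0.0484) of 9.20, 8.33 and 8.64. At an unadjusted p under 0.05 there were 27 members (37.5% against 20.5%). Replicate 1 was the highest library in all 4 genotypes for 15 members (20.8% against 6.76%), among them ERF1A, ERF2, ERF4, ERF5, ERF094, ERF109, DREB1A, DREB1B, RAP2-2 and RAP2-3, and the lowest for 0 (against 3.96%). The clock score was lowest in replicate 1 as well. The labels do not say what the number stands for, so a shared harvest, handling or library run cannot be told apart.

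**Figure D5:**
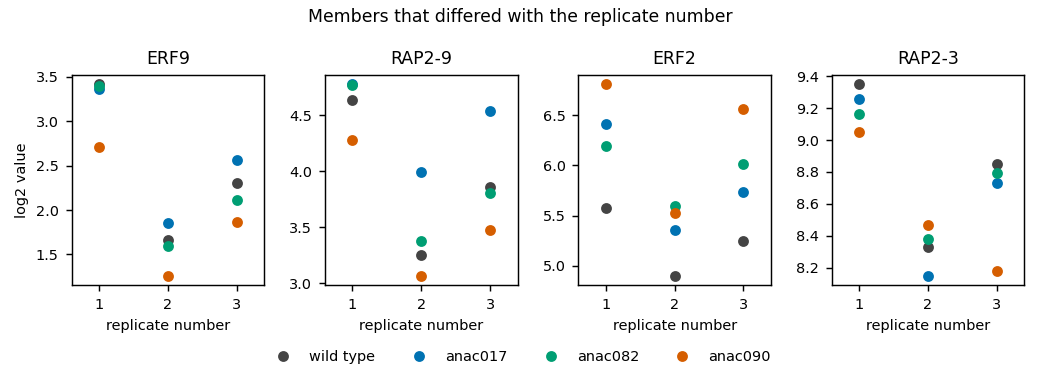
Log2 values of the 4 members that passed the test of the replicate number (x axis, numbers 1 to 3), coloured by genotype label. Replicate 1 is the highest in each genotype for all 4 genes, and the gap in ERF9 between numbers 1 and 2 is larger than the gap between genotypes.

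No tested gene of ethylene synthesis or signalling passed the test without the block, while 4 known targets of the family did. Of 14 genes of ethylene synthesis 5 were tested and none passed with or without the block. ACS6, an enzyme of the rate-limiting step, stood at 3.32, 3.04 and 3.10 in wild type and at 3.46, 4.83 and 3.97 in anac090 (0.93 ± 0.32, adjusted p = 0.0849), highest in replicate 2. All 14 genes of ethylene receptors and signalling were tested and none passed, with EIN3 at -0.06, 0.06 and 0.13 in the 3 lines. With the block the receptor gene ETR2 was lower in anac090 (-0.47 ± 0.48, 0.518, block 0.0329). Its SE was 0.119 with the block. Downstream, 4 of 6 targets of ERF1B and ORA59 were called lower in anac090, against 3.65% of all genes. ERF1B itself stood above wild type there, though it passed the test only with the block. ORA59, listed as ERF094, was at -0.13 ± 0.40 (adjusted p = 0.852). The defensin gene PDF1.2A stood at 6.24, 5.35 and 7.27 in wild type and at 4.97, 3.63 and 2.32 in anac090, with no overlap (-2.65 ± 0.64, adjusted p = 0.0395), and PDF1.2B (-2.40, 0.0343), PDF1.2C (-2.39, 0.0450) and PDF1.3 (-2.40, 0.0313) fell as well. These 4 are close paralogs and may share reads. The other 2 targets, HEL (0.20 ± 0.26, 0.627) and the basic chitinase CHI-B (-0.04 ± 0.27, 0.933), did not pass.

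Some members lie beside each other in the genome. There were 13 pairs with no more than 10 kb between them, and in 6 of them both genes were tested. ERF6 and ERF1A are 5457 bases apart on chromosome 4, and their differences in anac090 were 0.29 ± 0.42 and 1.35 ± 0.28. ERF2 and ERF5 are 7115 bases apart on chromosome 5, with 1.06 ± 0.35 and 0.10 ± 0.30. ERF107 and ERF104 are 1061 bases apart, with 0.05 ± 0.20 and 0.95 ± 0.40. TOE3 and ERF010 are 4885 bases apart on that chromosome, with -0.58 ± 0.22 and -0.31 ± 0.17. The other 2 pairs are those of the DREB1 genes given above. The difference between neighbours was not tested.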

How the data were processed

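Poly(A) RNA of 12 leaf libraries was measured, 3 per genotype, and groups and replicate numbers were read from the sample titles. The tools CASAVA (1.8.2), Cufflinks and TopHat and the TAIR10 build are listed in the submitters' processing notes. The deposited table holds log2 values, by their range and by back-transformed totals of 621025 to 621047 per library. Its sorted values differ by at most 0.0818 between libraries at the same rank, so they had been quantile normalized before deposit, and a change common to most genes is not visible in them. No read counts are kept, the depth is unknown, and the sources used here do not state how reads were assigned to strands or to near-identical genes. Of 33726 entries, 529 (1.57%) without an identifier were left out.

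limma 3.58.1 in R 4.3.3 (lmFit, contrasts.fit, eBayes with a trend) was fitted to 16817 genes whose back-transformed values averaged 1 or more, with all 12 libraries in 1 model of 4 groups. Benjamini-Hochberg adjustment ran over all genes tested, two-sided, with a threshold of 0.05. The pseudocount of 1 makes fold changes of low genes too small. The script was tested on simulated data. Deviations of same-numbered libraries from their group means correlated at 0.165 to 0.487 in each comparison with wild type, so the titles' numbers were taken to pair the libraries there, and p-values with that block stand beside the printed genes whose call it changed. Between anac082 and anac090 the correlations were 0.497, -0.31 and 0.422 in replicates 1, 2 and 3, so replicate 2 did not pair those groups. The block was nonetheless fitted over all 12 libraries at once, so block p-values in every comparison rest on those groups too.

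The members and gene lists were chosen with earlier results of these data known. Named are members past the threshold with or without the block, the 10 highest means, the 5 largest rises and falls in each comparison with wild type, and a fixed list of well-known members. Genes past the block threshold and libraries standing apart were added after their values were seen. Gene positions are those of the table, counted from 1. Upstream windows come from RefSeq TAIR10.1, in which all 138 members overlap their position in the table and 17 have the same start and end. The alternatives were other pseudocounts, filters and thresholds, fits of 2 groups, library weights, no variance trend and left-out libraries.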

Additional observations from a re-analysis of the deposited data

How the results depend on the processing

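The directions of the 39 named member and comparison pairs held in all settings tried except 4 pairs. ERF013 in anac090 turned to -0.31 with library weights, -0.26 without anac090 replicate 2 (-0.26 to 2.33 over single libraries left out) and -0.36 with the replicate block without that library, ERF022 in anac090 to -0.086 with the latter, and DREB1A and ERF9 in anac090 to 0.12 and 0.30 with weights. Over all settings, 27 of 923 pair values lost and 91 gained a call. The counts of called members depended on the setting. Where no share of all genes is given here or above, none was computed, and such counts cannot be read as particular to the members. With the replicate number as a block, 4 members were higher in anac017, 8 higher and 4 lower in anac090, and 2 higher in anac017 than in anac090. It moved no other count of members by more than 1.5 times. With only the 2 groups compared there were 5 higher and 4 lower in anac017 and 0 higher in anac090. Library weights, whose estimation stopped before it converged, gave 8 and 5 in anac017, 20 and 8 in anac090, 2 higher in anac017 than in anac082, 5 and 12 between anac017 and anac090, and 3 and 11 between anac082 and anac090. For members higher in anac090, a pseudocount of 0.1 gave 4, a pseudocount of 5 gave 1, no filter gave 1 and a threshold of 0.01 gave 0, and no filter and that threshold each gave 2 members for the replicate number. Without a variance trend 1 was higher in anac017 than in anac090. Without anac082 replicate 1 and anac090 replicate 3 there were 5 higher and 2 lower in anac017, 1 lower in anac017 than in anac090 and 8 for the replicate number. Of the settings chosen after the data were seen, only replicates 2 and 3 gave 0 higher in anac090. The block without anac090 replicate 2 gave 10 and 5 in anac017 (13.9% and 6.94%, against 11.9% and 10.8% of all genes), 14 and 12 in anac090 (19.4% and 16.7%, against 17.6% and 20.8%), 2 higher in anac017 than in anac082, 3 and 1 between anac017 and anac090, and 4 and 2 between anac082 and anac090. Without single libraries the members numbered 0 to 5 higher and 0 to 2 lower in anac017, 0 to 1 higher in anac082, 0 to 13 higher and 0 to 6 lower in anac090, 0 to 1 in each direction between anac017 and anac090, and 1 to 9 for the replicate number. The causes of these shifts were not tested. With 3 libraries per group and unknown depth, no detection floor can be given, and a member listed at 0 may be a failed estimate.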
